A study of Mus musculus with 2 samples.

Results

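The genes described here are 34 genes of G2 phase and mitosis, chosen by symbol from the 32285 features of a single-cell RNA-seq study of the embryonic mouse pancreas. All 34 were found and all had UMIs in both libraries, from 4830 UMIs for Nek2 to 117634 for Top2a over the kept barcodes of the Control library. They were followed as raw counts of unique molecular identifiers (UMIs, each standing for 1 captured RNA molecule tagged near its 3′ end) across cell classes named from marker genes. The question was how many cells held several of these RNAs together and how many held only the scattered counts that free RNA in the cell suspension leaves in every droplet. The pancreata were taken at embryonic day 14.5 from mice on a C57BL/6J background. For the Control library, 8 pancreata of the genotypes Fgf9 +/+ and +/- were pooled over 3 litters, and for the Null library 3 pancreata of the genotype Fgf9 -/-, also over 3 litters. The mutant allele carries a LacZ cassette in Fgf9, the gene of a secreted fibroblast growth factor, and the heterozygous pancreata of the Control pool carry it too. Cells were dissociated with TrypLE, passed a size gate and were sorted as DAPI-negative before droplet capture. With 1 pooled library per genotype there was no replicate, no test between genotypes was possible, and each interval given here is a 95% interval for counting error alone.

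As background, the genes of this list are switched on in late S phase and G2 and are used to condense, align and divide the chromosomes. Cyclin A2 and the B cyclins activate the kinase CDK1, the Aurora and Polo-like kinases build the spindle and correct its attachments, the spindle checkpoint holds the anaphase-promoting complex in check, and kinesins and scaffold proteins move the chromosomes and split the cell. Many of these promoters carry a cell cycle homology region (CHR), the letters TTTGAA, through which the DREAM complex keeps them off in resting cells and MuvB with B-MYB and FOXM1 turns them on, often beside CCAAT boxes bound by NF-Y. In the pancreas at this stage, acinar and ductal progenitors divide, whereas cells that have turned on the endocrine programme mostly leave the cell cycle.

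Promoter sequences were found in the RefSeq table of GRCm38.p6 for 31 of the 34 genes, as 32 windows of 300 bases from 250 before to 50 after the transcription start. The letters TTTGAA, or TTCAAA for the other strand, occurred in 25 of the 32 windows (78.1%), against 17.9% of all 32851 promoter windows of the same length. CCAAT, or ATTGG for the other strand, occurred in 26 of the 32 windows (81.3%), against 37.4% of all windows. Both motifs stood in 22 windows (68.8%), against 6.95% of all, and 2 or more CCAAT letters stood in 18 (56.3%), against 11.7%. The CHR and CCAAT letters do not contain each other, and a match is a description of the letters only. The 150 bases before the start are shown for 6 genes, Cdkn3, Ccnb2 and Hmmr, which were higher in mitotic-gene cells with few S phase RNAs, and Top2a, Mki67 and Kif11, which were lower there. Capitals mark the 2 motifs on either strand.
Cdkn3 (GRCm38.p6 chr14:46760391-46760540, plus strand): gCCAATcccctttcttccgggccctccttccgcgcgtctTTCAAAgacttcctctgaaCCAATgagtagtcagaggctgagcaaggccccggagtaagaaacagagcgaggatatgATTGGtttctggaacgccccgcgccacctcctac
Ccnb2 (GRCm38.p6 chr9:70421555-70421704, minus strand): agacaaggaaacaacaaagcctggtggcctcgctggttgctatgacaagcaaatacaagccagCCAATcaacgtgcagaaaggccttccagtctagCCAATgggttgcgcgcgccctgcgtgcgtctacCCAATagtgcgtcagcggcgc
Hmmr (GRCm38.p6 chr11:40733438-40733587, minus strand): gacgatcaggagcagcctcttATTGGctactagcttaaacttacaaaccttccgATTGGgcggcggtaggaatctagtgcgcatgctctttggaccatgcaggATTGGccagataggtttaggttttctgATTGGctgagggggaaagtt
Top2a (GRCm38.p6 chr11:99024190-99024339, minus strand): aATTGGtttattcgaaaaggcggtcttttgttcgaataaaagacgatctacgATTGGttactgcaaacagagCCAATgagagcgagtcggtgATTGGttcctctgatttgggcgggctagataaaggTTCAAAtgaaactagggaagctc
Mki67 (GRCm38.p6 chr7:135716380-135716529, minus strand): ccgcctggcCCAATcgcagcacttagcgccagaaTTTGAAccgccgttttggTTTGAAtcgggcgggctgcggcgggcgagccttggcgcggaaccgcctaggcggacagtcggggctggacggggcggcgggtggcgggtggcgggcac
Kif11 (GRCm38.p6 chr19:37376232-37376381, plus strand): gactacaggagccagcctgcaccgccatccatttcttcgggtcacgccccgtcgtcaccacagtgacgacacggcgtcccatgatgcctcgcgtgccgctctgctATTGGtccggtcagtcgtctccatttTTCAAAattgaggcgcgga
Within these bases Ccnb2 held 3 CCAAT letters, Hmmr held 4, Cdkn3 held 3, Top2a held 4, and Mki67 and Kif11 held 1 each. The CHR letters lay within the bases shown for Cdkn3, Top2a, Mki67 and Kif11, and outside them for Ccnb2 and Hmmr. Promoters with several CCAAT letters were thus found among the higher and the lower genes.

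The Control library held 30209 barcodes with 339959625 UMIs and the Null library 16708 barcodes with 271129120 UMIs. The filter left 26970 of the first, with a median of 5751.5 UMIs, and 8869 of the second, with a median of 24227 UMIs, and 16437 and 8570 of these were in a named class (medians 14411 and 24795 UMIs). The libraries shared 180 barcode sequences, 73 of them among kept barcodes, and the classes were mesenchymal-like, mesothelial-like, acinar-like, ductal or bipotent progenitor-like, endocrine progenitor-like, endocrine-like and endothelial-like, with the ending dropped from here on. Fgf9 stood at 9.53 CPM (a gene's UMIs over all UMIs of the cells in question on the usual CPM scale, haemoglobin genes and genes of the mitochondrial genome taken out) in Control and 1.71 CPM in Null named cells, and a 3′ tag may lie outside the disrupted part. Xist, the RNA made from the silenced X chromosome of females, was measured at 401 and 0.289 CPM, and sex and genotype cannot be told apart in these libraries. The strand of counting was not given, so the counts of Ccna2, Cdc20, Prc1, Nusap1, Cdca8 and Nek2 are uncertain where these genes overlap Exosc9, Elovl1, Rccd1, Oip5, 9930104L06Rik and Gm38037.

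Summed over the 34 genes, barcodes taken as background held almost as much mitotic RNA per UMI as named cells did. Barcodes of low UMI counts outside every class, taken as the background, had 2980 CPM (Control) and 3342 CPM (Null) of RNA of the 34 genes, and named cells had 3726 and 3634 CPM. These CPM came from 9268 Control and 6485 Null barcodes, of which 9039 and 241 had the 1000 UMIs needed for the thinned values below. Cells of low UMI counts among them cannot be told from free RNA. The sum therefore did not separate named cells from the background, but the way the counts were shared out among barcodes did. With every barcode thinned to 1000 UMIs, the 9039 Control background barcodes held a mean of 2.94 member UMIs with a variance-to-mean ratio (Fano factor) of 1.08, close to the value of 1 that independent draws give, and named Control cells held a mean of 2.78 with a Fano factor of 4.89. In the Null library the 241 background barcodes had a mean of 3.29 and a Fano factor of 2.73, and named cells 2.72 and 6.67. Among Control background barcodes 5.96% had no member UMI and the most members in 1 barcode was 11, whereas 30.3% of named Control cells had none and the most was 22. The Null values were 12.9% with none and at most 12 members in the background, and 43.0% with none and at most 22 in named cells. At this depth 11.5% of Control and 19.1% of Null background barcodes held 5 or more different members, against 18.5% and 18.6% of named cells, so holding 5 members at 1000 UMIs did not set cells apart from the background.

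**Figure D1:**
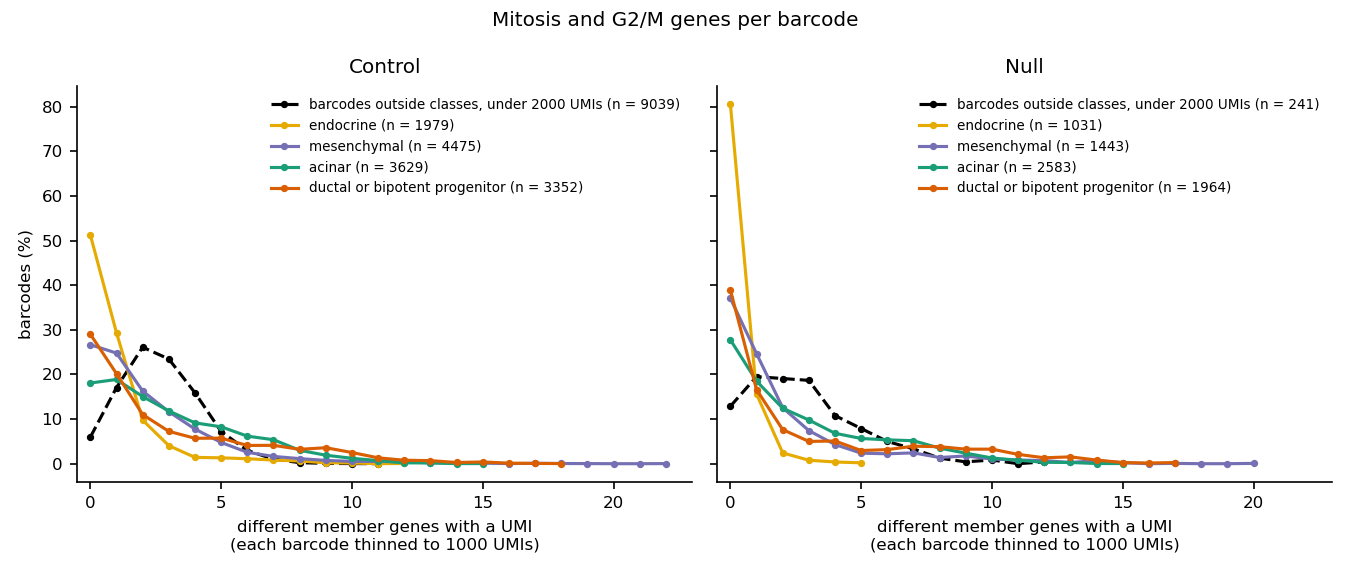
Share of barcodes (y axis, percent) by the number of different mitotic genes with a UMI (x axis), each barcode thinned to 1000 UMIs, for background barcodes and for endocrine, mesenchymal, acinar and ductal cells of the Control library and the Null library. The Control background forms a single hump that reaches 11 members, while cells run out to a tail of up to 22 members, and 80.6% of Null endocrine cells sit at 0.

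Single counts and co-occurring counts could also be told apart gene by gene. Each named cell was thinned to 2000 UMIs and each gene was looked up in cells that held at least 5 of the other 33 members and in cells that held none of them, so that no gene sorted its own cells. In both libraries each of the 34 genes was found more often beside the others, with a median share of 23% against 2.35% (Control) and 26.9% against 1.25% (Null). The ratio of the shares ran from 4.21 for Ccnb2 to 21.7 for Kif2c in the Control library, with a median of 9.06, and had a median of 20.2 in the Null library. The share in cells with none of the others, which free RNA can reach, was higher in the Control library for the median gene. Within classes, 34 of 34 genes showed the same order in each class of each library, with the exception of Null endocrine cells, where 3 cells held 5 others and 9 of 34 genes did.

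The 2 chromatin genes were among the most often detected. Top2a, the topoisomerase that untangles sister chromatids, had a UMI in 63.6% of Control cells with 5 other members and in 9.93% of cells with none, and in 68.0% and 5.30% in the Null library. Mki67, which coats mitotic chromosomes and is the usual stain for dividing cells, had 49.9% against 4.90% and 61.8% against 3.48%. In both libraries the cells with 5 other members were the ones with the higher shares, and the cells with none had lower shares in the Null library.

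Of the cyclins and the regulators of CDK1, Cdk1 itself was found in 38.9% against 7.17% of Control cells and in 39.8% against 3.30% of Null cells. Ccna2, the cyclin of S phase and G2, had 22.5% against 2.98% in the Control library, and the mitotic cyclins Ccnb1 and Ccnb2 had 23.9% against 2.55% and 23.5% against 5.58%. Cdca3, a trigger of mitotic entry, stood at 26.3% against 4.14%, and Cdkn3, a phosphatase that acts on cyclin-dependent kinases, at 7.43% against 0.901%. Ccnb2 and Cdk1 were the 2 members with the smallest Control ratios, 4.21 and 5.43.

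Of the mitotic kinases, Aurka, which matures the centrosome, was found in 14% of Control cells with 5 others and 1.31% of cells with none, and Aurkb, the kinase of the chromosomal passenger complex, in 19.5% and 2.33%. Plk1, the Polo-like kinase, had 15.9% and 1.90%, and the checkpoint kinases Bub1 and Bub1b had 12.3% against 0.864% and 17.3% against 1.49%. Nek2, which splits the centrosome pair, had the lowest share of all 34 in cells with 5 others, 4.63% (Control) and 6.01% (Null).

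The 2 genes of the anaphase-promoting complex pathway were detected at different rates. Ube2c, its ubiquitin-conjugating enzyme, was found in 57.9% of Control cells with 5 others and, the highest such share, in 10.2% of cells with none. Cdc20, its activator at the checkpoint, was found in 26.9% and 3.90%. In the Null library the shares were 55.5% and 3.73% for Ube2c and 28.7% and 1.58% for Cdc20.

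Among centromere, kinetochore and passenger complex genes, Birc5 (survivin) was found in 51.0% against 8.27% of Control cells and in 50.4% against 3.48% of Null cells. The kinetochore proteins Cenpf and Cenpe had 47.7% against 3.90% and 32.0% against 2.37% in the Control library, and 56.0% against 2.54% and 38.8% against 1.29% in the Null library. Cdca8 (borealin) had 40.5% against 5.10%, Cenpa, the centromeric histone H3 variant, 29.6% against 5.10% and Knstrn, a kinetochore adaptor, 15.7% against 2.80% in the Control library.

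Spindle and cytokinesis genes included those with the cleanest separation. Kif2c, a kinesin that takes microtubules apart at kinetochores, was found in 9.81% against 0.452% of Control cells and in 12.0% against 0.153% of Null cells. Ckap2l and Aspm, spindle proteins, had Control shares of 14.3% against 0.789% and 11.5% against 0.677%, and Anln (anillin), the scaffold of the contractile ring, 11.6% against 0.715%. Prc1, which bundles the central spindle, stood at 37.9% against 4.17%, Nusap1 at 32.6% against 2.26%, Tpx2, which activates Aurora A, at 32.0% against 2.22% and Hmmr at 26.9% against 1.86%. The motors Kif11, Kif20b and Kif23 stood between 19.4% and 21.6% in cells with 5 others.

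**Figure D2:**
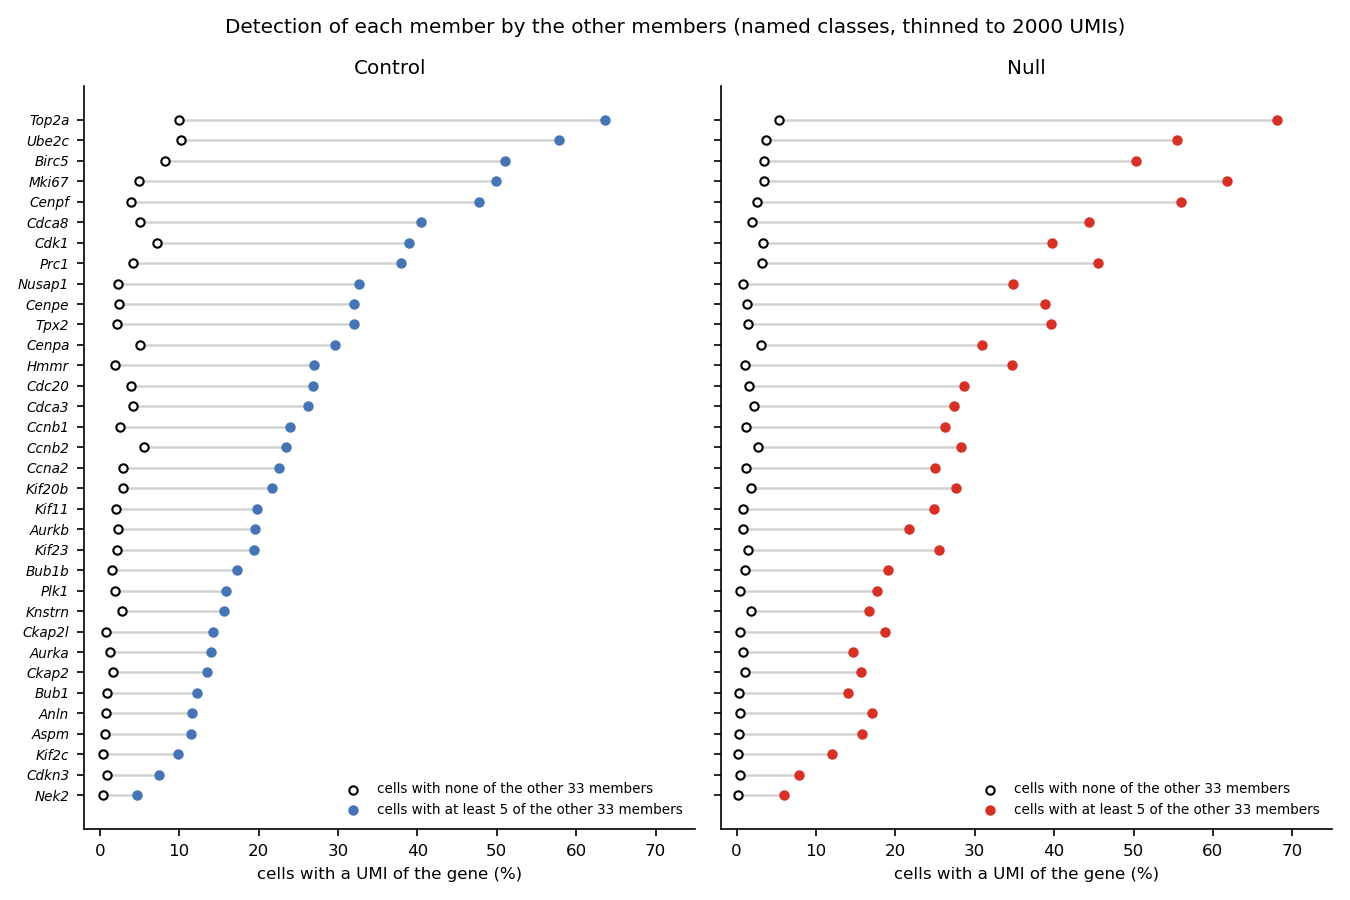
Share of named cells with a UMI of each mitotic gene (percent), in cells with at least 5 of the other 33 genes and in cells with none of them, at 2000 UMIs per cell, in the Control and Null libraries. All 34 genes lie higher in the cells with 5 others in both libraries, from 4.63% for Nek2 to 63.6% for Top2a in the Control library.

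A cell with at least 5 different members after thinning to 2000 UMIs is called a several-member cell here. Kept barcodes in no named class met this limit too, 57.6% (55.1 to 60.2) of 1494 in the Control library. In the Null library it was 48.3% (35.0 to 61.8) of 58. Barcodes in no class were not low in UMIs throughout. They took in a cluster of 338 Control barcodes with a median of 37353 UMIs, led by acinar and mesenchymal genes. Another 142 Control barcodes, epithelial without a subclass, had a median of 25795 UMIs. The share is thus not a rate for free RNA. The limit therefore did not set named cells apart from barcodes in no class. Over all named classes 33.8% (33.1 to 34.6) of 15371 Control cells and 30.1% (29.1 to 31.2) of 7823 Null cells met this. These cells held 80.5% of the member UMIs of named Control cells and 86.5% of those of Null cells, and 17.2% of Control and 33.4% of Null cells held no member. At a limit of 10 members, which was chosen after the data were seen, the shares were 14% and 15.6%, so the order of the libraries turned, and the classes are given with both limits. Thinning left out cells under 2000 UMIs, among them 916 of 4475 Control and 564 of 1443 Null mesenchymal cells. Before thinning, 75.3% of Control and 62.0% of Null named cells held 5 or more members.

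Acinar cells, the enzyme-secreting cells of the tips, had the highest share of the 7 compared classes, 51.3% (49.7 to 52.9) in Control and 43.0% (41.0 to 44.9) in Null cells. Endothelial cells had 44.3% and 36.0%, and ductal cells 41.1% and 39.3%. Mesenchymal cells had 29.2% and 23.4%, mesothelial cells, the covering layer, 26.8% and 15.0%, and endocrine progenitors, which express Neurog3, 14.7% and 11.4%. Endocrine cells came last with 8.0% and 0.301%. Among Control cells the intervals of neighbours in this order overlapped for acinar (49.7 to 52.9) and endothelial cells (38.5 to 50.1), for endothelial and ductal cells (39.4 to 42.8) and for mesenchymal (27.8 to 30.8) and mesothelial cells (24.2 to 29.6), and not for the others. Immune cells had 37.4% and 25.2%, neural cells 25.7% and 33.3% and mural cells 38.2% and 31.0%, on 58 to 372 thinned cells. The order depended on the limit. At 10 members ductal cells led the 7 classes, with 22.6% and 23.3%, against 18.2% and 18.1% in acinar cells.

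As ratios of Null over Control shares, the values were 0.837 (0.792 to 0.884) in acinar, 0.956 (0.893 to 1.02) in ductal, 0.801 (0.704 to 0.912) in mesenchymal, 0.559 (0.443 to 0.704) in mesothelial, 0.773 (0.561 to 1.07) in endocrine progenitor, 0.813 (0.634 to 1.04) in endothelial and 0.0376 (0.0120 to 0.118) in endocrine cells. All 7 lay below 1, and those of ductal, endocrine progenitor and endothelial cells had intervals that reached 1. At 10 members the shares were 18.2% and 18.1% in acinar cells, 22.6% and 23.3% in ductal cells, 9.91% and 9.33% in endocrine progenitors and 15.2% and 15.3% in endothelial cells. In those 4 classes the intervals of the libraries overlapped at the higher limit. Mesothelial cells kept the order, with 13.1% (11.1 to 15.2) and 9.51% (7.07 to 12.5), and these intervals overlapped too. Mesenchymal cells turned, with 8.49% (7.59 to 9.45) in Control and 14.6% (12.3 to 17.1) in Null cells. Free RNA was estimated by reading all acinar enzyme UMIs in other classes as free RNA. Enzyme RNA from doublets or made by the cells themselves would be counted in it. So estimated, free RNA made up 13.2% of Control and 5.85% of Null ductal UMIs, and would by itself bring 0.788 and 0.391 member UMIs to a ductal cell of 2000 UMIs. Its part in the difference at 5 members was not tested.

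**Figure D3:**
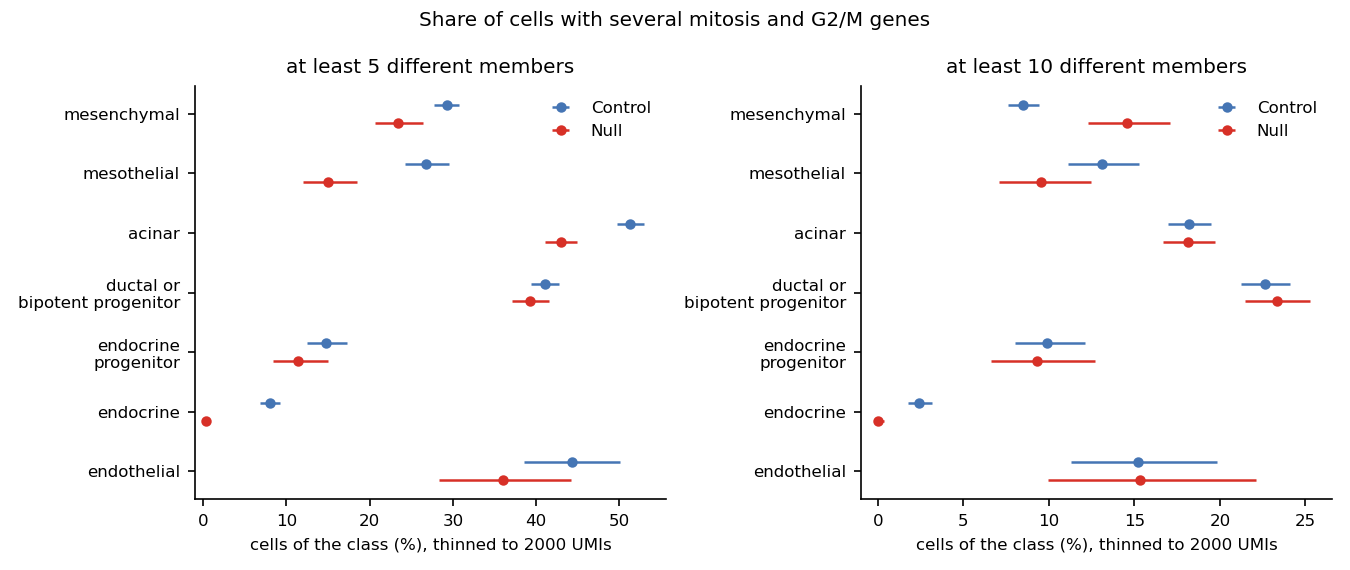
Share of cells (percent) with at least 5 and with at least 10 different mitotic genes at 2000 UMIs per cell, by class, in the Control and Null libraries, with exact 95% intervals. At 5 members the Control share is the higher in each of the 7 classes, from 51.3% in acinar to 8.0% in endocrine cells, and at 10 members the mesenchymal order turns to 8.49% and 14.6%.

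The summed level of the 34 genes was 4099 CPM in Control and 3837 CPM in Null acinar cells, 4587 and 4788 CPM in ductal cells, 3986 and 4080 CPM in endothelial cells, 2926 and 2579.8 CPM in endocrine progenitors, 3391 and 2575 CPM in mesothelial cells, 2739 and 3534 CPM in mesenchymal cells and 1597 and 213 CPM in endocrine cells. Mesenchymal, ductal and endothelial cells had the higher Null sum, mesenchymal cells by the widest margin. Acinar, endocrine progenitor, mesothelial and endocrine cells had the lower Null sum. Each gene was then compared between libraries within each class as a log2 ratio of Null over Control CPM, with the exact interval for 2 Poisson counts, and the median over genes is given beside the median of the genes' interval bounds.

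In endocrine cells all 34 genes had lower Null values, each by more than 1.5 times, against 13.6% of 15543 genes (56.9% of genes were higher). The median log2 ratio was -3.00 (bounds -3.30 to -2.70), against 0.06 for all genes. Top2a had 152 CPM in Control and 19.8 CPM in Null endocrine cells, Mki67 108 and 14.4 CPM, Ube2c 161 and 15.2 CPM and Cdk1 68.4 and 8.89 CPM. Every member was higher in Control than in Null cells, from Hmmr at -3.42 (-3.77 to -3.09) to Ckap2, a spindle protein, at -1.94 (-2.30 to -1.60). Of 1950 Control endocrine cells 156 held 5 or more members, and of 997 Null cells 3 did. At 10 members there were 47 Control cells and 0 of 997 Null cells, which allows a share of up to 0.301% when 0 is read as 3 counts and of 0.369% as the exact upper bound.

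The Control endocrine counts were unevenly spread. Of the 156 several-member cells 140 lay in 1 of the 6 endocrine clusters, led by Gcg, Chgb and Ghrl, where 27.8% (24.0 to 32.0) of 503 thinned Control cells and 1.72% (0.0436 to 9.24) of 58 Null cells met the limit. In the other 5 clusters the Control share was at most 1.42%. The 156 cells had a median of 36058.5 UMIs, against 13841 UMIs in the 631 Control endocrine cells without any member. The 14 endocrine markers summed to 11060.2 CPM in the several-member cells and to 44989.8 CPM in the cells without members, and all 14 were lower by more than 1.5 times in the first. Acinar markers summed to 14033 and 3955 CPM in the same cells, with 12 of the 12 measured higher by more than 1.5 times and none at 0, and ductal markers to 2738 and 798 CPM, with 9 of 11 higher. Shares of all genes within the class are not given. Over all named Control classes 7.41% of genes were higher and 32.0% lower by that much. Without that cluster the ratio of the shares was 0.193 (0.0444 to 0.836) and the median log2 ratio -1.46. Called doublets, which had been removed, made up 0.769% of Control and 5.69% of Null barcodes that passed the filter, and with them kept the ratio was 0.25 and the median log2 ratio -1.19. Free RNA, at 32.6% of Control and 7.61% of Null endocrine UMIs, would carry 60.8% of the Control member UMIs and more than all of the Null ones (119.5%). The acinar enzymes behind this estimate stood at 13482 CPM in Control several-member cells and 3804 CPM in Control cells without members. The estimate cannot tell free RNA from doublets. The part of doublets and of free RNA in the endocrine difference was not tested further.

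In mesenchymal cells, the connective tissue around the epithelium, 32 of 34 genes were higher in the Null library, against 52.1% of 14976 genes, and 10 were higher by more than 1.5 times, against 10.4% of genes. The median log2 ratio was 0.33 (bounds 0.23 to 0.50), against 0.02 for all genes. Anln, with 32.1 CPM in Control and 58.3 CPM in Null mesenchymal cells, had a log2 ratio of 0.86 (0.72 to 1.00). Prc1 had 120 and 199 CPM (0.73), Aspm 32.8 and 52.9 CPM (0.69) and Mki67 177 and 286 CPM (0.69, 0.63 to 0.75). The B cyclins, Cdca3 and the anaphase-promoting genes stood near 0, with Cdc20 at 66.4 and 66.9 CPM (0.01), Ccnb2 at 0.06 and Cdca3 at 0.05. Ccnb1 at -0.10 (-0.23 to 0.02) and Ube2c, at 208 and 189 CPM, at -0.14 (-0.21 to -0.07) were the 2 lower genes. The 6 genes of cyclins, CDK1 and its regulators ran from -0.10 to 0.23. Without a test between roles, the median by role was 0.60 for spindle, kinesin and cytokinesis genes, 0.52 for the 2 chromatin genes, 0.28 for mitotic kinases, 0.27 for centromere and kinetochore genes, 0.12 for cyclins and CDK1 regulators, and -0.07 for Cdc20 and Ube2c.

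The mesenchymal order depended on which cells and which measure were used. As the mean over cells of each cell's own CPM, which weights shallow cells like deep ones, the median log2 ratio was -0.03, and it was -0.06 with finer clusters (Leiden resolution 2). It was 0.81 with free RNA subtracted, and the ratio of several-member shares was 1.38 in barcodes of at least 5000 UMIs. A mesenchymal cluster of low UMI counts, led by Cav1, Aldh1a2 and Crabp1, held 2047 Control and 715 Null cells. Its name rested on 4 mesenchymal markers, against 9 or 10 in the other mesenchymal clusters. Cav1 and Aldh1a2 were also among the leading genes of the mesothelial cluster, and Aldh1a2 was on the mesothelial marker list, so the name is uncertain. At Leiden resolution 2 the mesothelial class held 1638 thinned Control cells, against 1085 at resolution 1. In the low-UMI cluster 53.4% (50.4 to 56.3) of the 1162 thinned Control cells and 17.7% (12.4 to 24.2) of the 175 thinned Null cells held 5 or more members. In the largest cluster outside it, led by Sparcl1, Prrx1 and Islr, the shares were 16.2% (14.6 to 17.9) of 2023 and 30.5% (25.5 to 35.8) of 328 cells, and in the one led by Mgp, Dcn and Lum they were 23.5% and 19.3%. Without the low-UMI cluster the ratio of shares was 1.42 (1.21 to 1.65). The 1041 Control several-member cells of the class had a median of 3208 UMIs, against 9467 UMIs in those with no member, and acinar markers at 7114 against 3713 CPM, with 12 of 12 measured higher by more than 1.5 times and none at 0. In these Control cells 10 of 10 epithelial, 10 of 11 mesothelial (1 lower), 10 of 14 endocrine and 8 of 11 ductal markers were also higher by that much. Endocrine progenitor markers reached 3 of 9 and mural markers 1 of 8 (1 lower). The mesothelial markers summed to 228 against 218 CPM. Mesenchymal markers summed to 4874 against 6497 CPM, with 0 of 10 higher and 1 lower by that much. Over all named Control classes 7.41% of all genes were higher by that much, and the share within this class is not given. The 206 Null several-member cells had a median of 21879 UMIs, and acinar markers at 1724 against 1776 CPM, with 0 of 11 measured higher by that much and none at 0. Free RNA came to 28.9% of Control and 8.58% of Null mesenchymal UMIs. Across the 34 genes, those with more background relative to cells in the Control library had lower Null over Control ratios in this class, with Pearson's r = -0.76 and Spearman's rho = -0.79 over the 34 genes of the same 2 libraries, which are not independent replicates. In the other classes r ran from -0.66 to -0.04.

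In mesothelial cells 33 of 34 genes had lower Null values (45.1% of 14144 genes were higher), and 3 were lower by more than 1.5 times, against 13.2% of genes. The median log2 ratio was -0.41 (bounds -0.54 to -0.20), against -0.05 for all genes. The 3 were Nek2 at 13.2 and 7.90 CPM (-0.74, -1.14 to -0.35), Ccna2 at 61 and 37.0 CPM (-0.72) and Aurkb at 53.3 and 35.3 CPM (-0.59). Top2a had 377 and 272 CPM (-0.47) and Mki67 253 and 179 CPM (-0.50). Spindle genes lay closest to 0, with a median of -0.24, and Hmmr, at 78.6 and 79.0 CPM, was the 1 gene that was not lower. Free RNA was 13.9% of Control and 5.20% of Null mesothelial UMIs. In Control mesothelial cells ductal markers summed to 1715 CPM in several-member cells and to 1063 CPM in those without members, with 8 of the 11 measured higher by more than 1.5 times and none at 0. General epithelial markers summed to 1405 and 1035 CPM there, with 4 of 10 higher. In Null mesothelial cells ductal markers summed to 1136 and 1060 CPM, with 4 of 10 higher, and epithelial markers to 598 and 434 CPM, with 3 of 9 higher. Over all named classes, and not within this one, 7.41% (Control) and 7.51% (Null) of all genes were higher by that much. The part of these other markers in the mesothelial difference was not tested.

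In acinar cells the differences were small. The median log2 ratio was -0.11 (bounds -0.16 to -0.06), with 8 of 34 genes higher in the Null library, against 45.9% of 16614 genes, and none passed 1.5 times. Cenpa was lowest at 138 and 112 CPM (-0.30, -0.34 to -0.27) and Mki67 highest at 278 and 318 CPM (0.20, 0.18 to 0.22), while Top2a had 405 and 418 CPM (0.05). Acinar clusters ranged widely in their share of several-member cells. It was 54.0% and 52.7% in the cluster led by P2rx1 and Ptf1a, 46.1% and 45.0% in one led by Try10 and Cela2a, and 33.2% and 31.1% in another led by Cela2a and Try10 that held 185 Control and 608 Null cells. In the cluster led by P2rx1 and Noxa1 it was 62.3% and 71.9%, in the one led by Cpa1 and Reg1 41.6% and 34.2%, and in the one led by Lrrc7 and Slit3, on 111 Control and 39 Null thinned cells, 56.8% and 38.5%. Acinar enzyme UMIs were higher in cells without members, with acinar markers at 40729 against 26467 CPM in Control and 74425 against 42474 CPM in Null cells, the second value of each pair being that of several-member cells.

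In ductal cells 23 of 34 genes were higher in the Null library, close to the 64.7% of 16168 genes, and the median of 0.05 (bounds -0.01 to 0.09) lay beside 0.09 for all genes. Nek2 (18.3 and 22.6 CPM, 0.30) and Mki67 (293 and 358 CPM, 0.29) were highest, and Ube2c (405 and 354 CPM, -0.19) lowest. Ductal clusters also ranged widely. In the cluster led by Spon1, Cdh6 and Dcdc2a 71.2% of Control and 76.0% of Null cells held 5 or more members, and in that led by Fmo2, Fmo1 and BC006965 55.5% and 59.1%. In the one led by Fmo2, BC006965 and Spp1 the shares were 9.83% and 15.0%, and in the one led by Cdh6, Dcdc2a and Ankrd1, with 114 Control and 590 Null cells, 1.75% and 6.61%. The Null share was higher in each of these 4 clusters, although over the class it was the lower one, and the remaining ductal cluster had cells of the Null library only (59 cells, 28.8%).

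In endocrine progenitors 6 of 34 genes were higher in the Null library, against 60.0% of 13317 genes, with a median of -0.18 (bounds -0.35 to 0.04) and none past 1.5 times. Aurkb had 42.5 and 29.5 CPM (-0.53), Ccna2 52.3 and 36.5 CPM (-0.52) and Birc5 131 and 92.5 CPM (-0.50), and Anln was highest at 24.3 and 28.6 CPM (0.23). The 2 clusters of the class differed. The cluster led by Neurog3, Grin3a and Tff3 held 21.0% of Control and 16.9% of Null cells with 5 members, and the cluster led by Neurod2, Neurog3 and Epb42 5.65% and 2.10%. In endothelial cells 21 of 34 genes were higher, against 50.1% of 11664 genes, with a median of 0.06 (bounds -0.17 to 0.30), from Cdca3 at 78.1 and 53.4 CPM (-0.55) to Kif2c at 27.6 and 38.3 CPM (0.47). On 327 Control and 184 Null cells, the intervals of most genes in endothelial cells included 0.

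**Figure D4:**
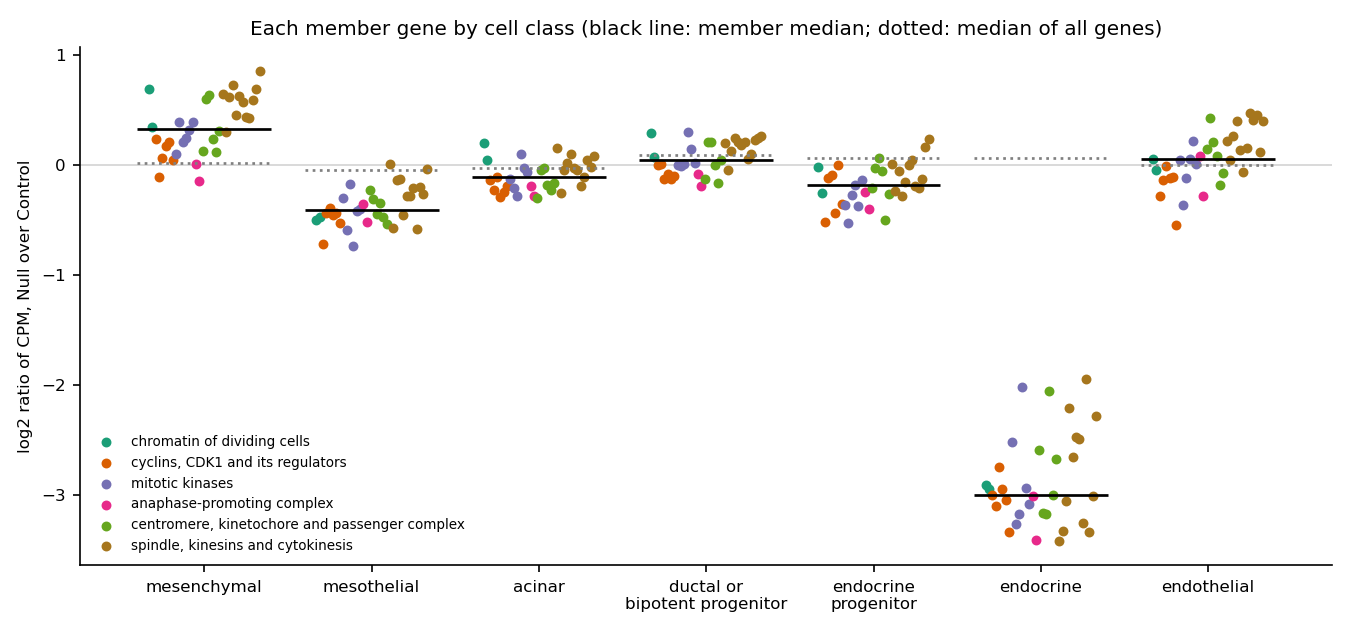
Log2 ratio of Null over Control CPM (y axis) of each of the 34 mitotic genes in each class, coloured by role, with a black line at the median of the genes and a dotted line at the median of all genes. In mesenchymal cells (median 0.33) 31 of the 34 genes lie above the dotted line, in mesothelial cells (-0.41) 2 do and in endocrine cells (-3.00) none does.

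Levels were also compared within several-member cells, which are chosen by the same genes, so that these values are a description that the choice of cells bears on. Their median log2 ratio of Null over Control was 0.35 in mesenchymal, 0.40 in mesothelial, 0.43 in endothelial, 0.26 in endocrine progenitor, 0.16 in ductal and 0.09 in acinar cells. In mesothelial cells all 34 genes had the higher Null value, against 46.4% of all genes. Mesothelial Prc1 stood at 409 CPM in 291 Control and 648 CPM in 74 Null several-member cells (0.66, 0.56 to 0.77), and Anln at 108 and 179 CPM (0.72). In mesenchymal several-member cells 7 of 34 genes were higher by more than 1.5 times, against 9.96% of all genes. Counting every higher Null value, there were 33 of 34 genes in endothelial cells, against 49.5%, 33 in endocrine progenitors, against 55.8%, 31 in ductal cells, against 62.3%, and 27 in acinar cells, against 45.7%. Mesenchymal Mki67 stood at 569 and 862 CPM and mesenchymal Cenpf at 566 and 831 CPM. Over these 6 classes Hmmr ran from 0.30 to 0.82 and Anln from 0.30 to 0.78, and Ube2c lay lower, from -0.10 to 0.31. A Control cell held more free RNA, such as 1.72 expected member UMIs against 0.573 in mesenchymal cells of 2000 UMIs, and the part of this in reaching 5 members was not tested.

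The 34 genes did not act as a block once S phase RNAs were considered. Several-member cells, each sorted by the 33 other members, were divided into those with at most 1 and those with at least 5 of 44 S phase genes, which code for replication licensing and DNA synthesis proteins. There were 196 and 3505 such cells in the Control library and 131 and 1503 in the Null library. In both libraries 22 genes were higher in the cells with few S phase RNAs, 9 were lower and 3 (Anln, Ccna2 and Cdca8) had opposite signs, while 52.0% (Control) and 46.3% (Null) of all genes were higher. Cdkn3 had 31.7 CPM with S phase RNAs and 60.7 CPM without in Control cells, and 28.1 and 63.2 CPM in Null cells. Cdc20 had 144 and 274 CPM and then 142 and 304 CPM, Ccnb2 127 and 233 CPM and then 125 and 238 CPM, Cenpa 173 and 320 CPM and then 162 and 302 CPM, and Ube2c 598 and 902 CPM and then 570 and 897 CPM. All 5 were higher without S phase RNAs in both libraries, and their log2 differences ran from 0.59 for Ube2c in the Control library to 1.17 for Cdkn3 in the Null library. In the opposite direction Top2a had 743 and 512 CPM in Control and 875 and 584 CPM in Null cells, Aurkb 125 and 88.8 CPM and then 139 and 90 CPM, Mki67 479 and 380 CPM and then 638 and 495 CPM, and Kif11, the motor that pushes spindle poles apart, 128 and 102 CPM and then 159 and 124 CPM. Bub1, Prc1, Ckap2l, Kif20b and Cdk1 were the others of the 9, with Cdk1 at -0.02 and -0.10.

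Classes take different shares of these cells, and only acinar cells had at least 50 of each kind. Within acinar cells of both libraries, 20 of the 22 genes remained higher and 7 of the 9 remained lower. Acinar Cdc20 had 138 and 242 CPM in Control and 131 and 291 CPM in Null cells, acinar Ccnb2 107 and 159 CPM and then 107 and 203 CPM, and acinar Hmmr 157 and 203 CPM and then 207 and 258 CPM. Acinar Top2a had 611 and 485 CPM and then 739 and 542 CPM, and acinar Mki67 402 and 353 CPM and then 553 and 439 CPM. Cdk1, which was lower over all classes, was higher in acinar cells of both libraries, at 0.03 and 0.05 on the log2 scale, and Kif20b had opposite signs there.

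**Figure D5:**
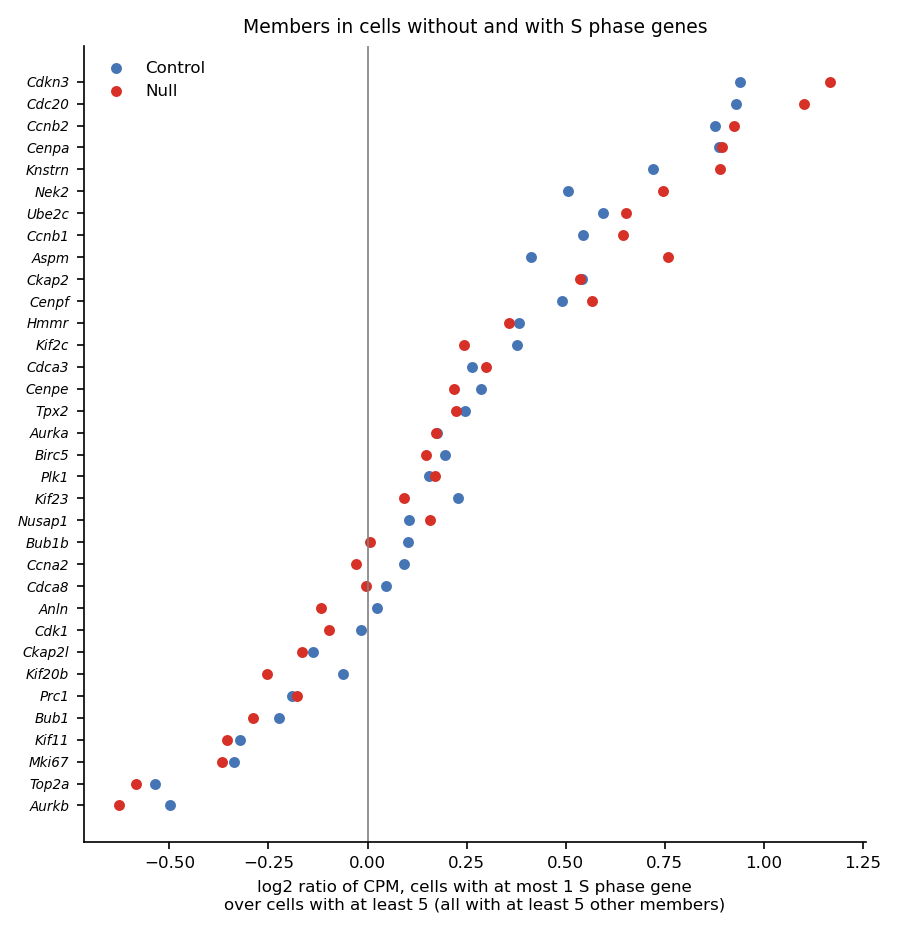
Log2 ratio of CPM between several-member cells with at most 1 and with at least 5 of 44 S phase genes, for each of the 34 mitotic genes in the Control and Null libraries. Cdkn3 and Cdc20 lie highest in both libraries (0.93 to 1.17), and Top2a, Aurkb and Mki67 lowest (-0.63 to -0.34).

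Other cell cycle genes were compared between several-member cells and cells with no member, within each library over all named classes. Classes take different shares of these 2 kinds of cells. Endocrine cells were 156 of the 5203 Control several-member cells, and 631 endocrine cells had no member. In the Null library they were 3 of 2358, and 679 had no member. The part of class in the values of this and the next 2 paragraphs was not tested. Of 61 other mitosis genes, 61 (Control) and 60 (Null) were higher by more than 1.5 times, against 7.41% and 7.51% of all genes, and their medians were 3.02 and 3.8. Kif4, a chromosome-bound kinesin, had the highest Control ratio, with 69.0 against 4.02 CPM, and 80.6 against 2.37 CPM in Null cells, where Depdc1a had the highest ratio (5.63). Sgo2a, a guardian of centromere cohesion, Depdc1a, Knl1, a kinetochore scaffold, and Cep55, which acts in the last step of cell separation, had Control log2 ratios of 4.03, 3.97, 3.93 and 3.90. At the low end stood Bub3 at 1.18 and 1.39, Lmnb1, a lamin of the nuclear envelope, at 1.33 and 1.61, Cks1b at 1.38 and 1.63, Hjurp at 1.53 and 1.85, and Pttg1. Pttg1 (securin), which guards the cohesin cleaver separase, was the exception, with 60.5 against 24.3 CPM in Control cells (1.31) and 23.1 against 23.6 CPM in Null cells (-0.03).

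Of the 44 S phase genes, 21 in Control and 27 in Null cells were higher in several-member cells by more than 1.5 times, and 1 was lower, against 32.0% and 35.7% of all genes lower. Their medians, 0.57 and 0.78, lay far under those of the mitosis genes. Among the highest, Brip1 stood at 1.93 and 2.52, Rad51ap1 at 1.76 and 2.23, Tk1 at 1.70 and 2.24 and Rrm2, a subunit of ribonucleotide reductase, at 1.62 and 1.99. Ung, a uracil-DNA glycosylase, was the lower one at -0.75 and -0.93, and Mcm4 (-0.26 and -0.22), Cdc6 (-0.17 and -0.03), Mcm2 (-0.14 and -0.11) and Cdca7 (-0.03 and -0.14), of which the first 3 act in licensing, came next. Cells with 5 or more S phase RNAs made up 67.4% of Control and 63.7% of Null several-member cells, and 43.3% and 36.3% of the other cells.

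Of 33 transcription regulators and entry switches of the cell cycle, 13 in Control and 15 in Null cells were higher in several-member cells and 3 and 4 were lower, both by more than 1.5 times. Over all genes 7.41% and 7.51% were higher by that much and 32.0% and 35.7% were lower. Cdc25c, the phosphatase that activates CDK1, had 27.2 against 2.39 CPM in Control cells (3.51) and 27.8 against 0.850 CPM in Null cells (5.03). Foxm1, the activator of these promoters, had 25.9 against 3.44 CPM (2.91) and 31.8 against 2.62 CPM (3.60). Fbxo5, an inhibitor of the anaphase-promoting complex, stood at 2.27 and 2.68, Cdc25b at 1.91 and 2.18 and E2f8, a repressor of S phase genes, at 1.61 and 2.44. The lowest were the inhibitors of cyclin-dependent kinases Cdkn1a (-1.45 and -1.36) and Cdkn1c (536 against 1119 CPM, -1.06, and 508 against 886 CPM, -0.80), Rb1 (-0.97 and -0.82), Ccnd3 (-0.55 and -0.61) and E2f1 (-0.53 and -0.41).

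Between genotypes, these lists stood close to the 34 genes in some classes and apart in others. In endocrine cells the S phase genes had a median log2 ratio of Null over Control of -1.41, with 37 of 44 lower by more than 1.5 times, and the other mitosis genes -2.21, with 55 of 61, against 13.6% of all genes. In mesothelial cells all 44 S phase genes were lower, with a median of -0.47, and the other mitosis genes had -0.44. In mesenchymal cells the S phase median was 0.09 and that of the other mitosis genes 0.32, with 53 of 61 higher, against 52.1% of all genes. In endocrine progenitors S phase genes had -0.49 and in endothelial cells -0.33, where the 34 genes had -0.18 and 0.06. Acinar and ductal S phase medians were -0.03 each. Differences between lists were not tested.

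The genes outside the list whose pattern was most like it were ranked by the smallest log2 ratio between several-member cells and cells without members over the 10 pairs of class and library with at least 50 cells of each kind, among 4675 genes. Mxd3, a partner of MAX in the MYC network, came first with a smallest ratio of 4.24 and a median of 4.92. Others of the 15 that ranked highest were Depdc1a (3.68), Kif4 (3.58), Kif14, a kinesin of cytokinesis (3.31), Knl1 (3.29), Cdca2 (3.25), Pimreg (3.25), Cdc25c (3.18), Arhgap19 (3.16), Ankle1, a nuclease (3.10), Neil3, a DNA glycosylase (3.07), Esco2, which acetylates cohesin (3.05), Ncapg, a condensin subunit (3.04) and Kif20a (3.04). Of those named, Mxd3, Kif14, Arhgap19, Ankle1, Neil3 and Esco2 were on none of the 3 lists. Among the 34 genes themselves, the correlation between pairs, of log-transformed counts over 13226 named Control cells thinned to 5000 UMIs, had a median of 0.29 and ran from 0.10 to 0.62 over 561 pairs, and over 7385 Null cells it had a median of 0.37 and ran from 0.12 to 0.72.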

How the data were processed

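Droplet single-cell libraries (10x) of 2 pools of mouse embryonic pancreas were read from the deposited filtered matrices, whose values are raw UMI counts per gene and barcode, made by the authors with Cell Ranger 6.1.1 on mm10, per the submitters' processing notes. Those notes also list bcl2fastq and Seurat 3.2.3, whose roles are not stated there. The deposited barcodes reached down to 518 UMIs (Control) and 500 UMIs (Null), so a planned background of barcodes under 500 UMIs could not be taken, and barcodes under 2000 UMIs outside every named class were used.

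The strand used in counting was not given. Barcodes were kept at 1000 or more UMIs, 300 or more genes and under 15% mitochondrial UMIs (scanpy 1.11.5, numpy 2.4.6, scipy 1.17.1, python 3.11.15). This removed 244 Control and 6282 Null barcodes under the UMI minimum and 2801 and 1060 at or over the mitochondrial limit, criteria that can overlap. Scrublet doublets were removed from each library. The automatic threshold of 0.543 marked too few Control barcodes, so a score of 0.25 was set, which called 209 (0.769%), and the automatic threshold called 535 Null barcodes (5.69%). The barcodes were clustered on 2000 variable genes, without 242 cell cycle genes, with 30 principal components, 15 neighbours and Leiden resolution 1, and epithelial barcodes were clustered again on their own. Classes were named from marker lists, with naming thresholds set after the cluster lists were seen, so class differences may come from the rebuilt names.

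The 34 genes and the 3 other gene lists were chosen with earlier results of these data known, and 1 symbol on the lists had no feature. All 34 genes could be named, other list genes by their 5 highest and 5 lowest values, and the 15 genes of most similar pattern by the smallest log2 ratio over pairs of class and library, with at least 50 cells of each kind and 50 UMIs and without predicted gene models. Some genes that these rules would name are not reported here. Each cell was thinned to 2000 UMIs without replacement to count cells with 5 or more members. CPM were computed from summed counts, gene ratios used genes with at least 20 UMIs in a class, and a change past 1.5 times counted as called. Shares have exact Clopper-Pearson intervals, ratios of shares Katz log intervals and CPM ratios exact conditional Poisson intervals, all at 95% and for counting error only. A count of 0 was read as up to 3 counts. The free RNA share came from acinar enzyme UMIs in other classes, all of which were read as free RNA. Thinning and ratios were tested on simulated data. Alternatives were other member limits, other thinning, doublets kept, cell cycle genes allowed in clustering, finer clusters, means over cells, free RNA subtracted, scaling to the median gene and other UMI minimums.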

Additional observations from a re-analysis of the deposited data

Results flagged for a closer look

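Between genotypes, the median log2 ratio of Null over Control CPM over the 34 mitotic genes was 0.33 in mesenchymal cells and -0.41 in mesothelial cells, classes that are neighbours in the tissue. The values stand out because 32 of 34 genes were higher in the Null library in mesenchymal cells, against 52.1% of all genes. In mesothelial cells 33 of 34 were lower, while 45.1% of all genes were higher. The ratios of several-member shares lay below 1 in both classes, at 0.801 (0.704 to 0.912) and 0.559 (0.443 to 0.704). Under some alternatives the mesenchymal ratio passed 1. A mesenchymal cluster of low UMI counts shared leading genes with the mesothelial cluster. The contrast of the medians did not hold under every alternative. The mesenchymal median was -0.056 at Leiden resolution 2 and -0.027 as a mean over cells, each with 15 of 34 genes higher. With 1 library per genotype the difference between the classes was not tested.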

How the results depend on the processing

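No paired analysis was possible because each genotype had 1 pooled library and no result comes from a test. Of the ratios of several-member shares (Null over Control) in 7 classes, 54 recomputed values stayed within the main interval, 17 moved and 5, all mesenchymal, turned from a main interval that excluded 1. Of the member median log2 ratios, 43 stayed, 12 moved and 2, both mesenchymal, turned from bounds that excluded 0. Where the main interval or bounds included no difference, ductal shares also passed 1 (1.02 at 8 members, and 10 members and clusters alike below), as did endothelial shares (1.01 at 10 members), and the sign of the ductal median (below) and of the endothelial median (-0.023 as a mean over cells) changed. The causes were not tested. Limits of 10 members, barcodes of at least 5000 UMIs for shares, clusters weighted alike and the leaving out of single clusters were chosen after seeing the data.

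In mesenchymal cells the ratio of shares, 0.801, was 0.664 at 3 members, 0.606 without thinning, 1.25 at 8 members, 1.72 at 10, 1.27 with cell cycle genes allowed in clustering, 1.38 in barcodes of at least 5000 UMIs and 1.42 without the low-UMI cluster. The median log2 ratio, 0.33, was 0.11 with doublets kept, 0.20 with cell cycle genes allowed, -0.056 at Leiden resolution 2, -0.027 as a mean over cells and 0.81 with free RNA subtracted. Mesothelial shares gave 0.713 at 8 members, 0.727 at 10 and 0.424 at resolution 2. Acinar shares gave 0.893 at 8 members, 0.997 at 10, 0.942 without thinning and 0.930 with clusters alike, and the acinar median was -0.16 as a mean over cells. Ductal shares gave 0.837 at 3 members, 1.03 at 10, 0.821 at 5000 UMIs, 0.852 without thinning and 1.13 with clusters alike, and the ductal median was 0.11 with free RNA subtracted and -0.043 when scaled to the median gene. The endothelial median was 0.31 with free RNA subtracted. Endocrine shares gave 0.331 without thinning, 0.25 with doublets kept and 0.193 without the cluster of the highest Control share, and no ratio at 10 members, where 0 Null cells remained. The endocrine median was -1.19 with doublets kept, -2.11 with cell cycle genes allowed, -1.93 as a mean over cells, -6.18 with free RNA subtracted and -1.46 without that cluster. In Null endocrine cells the estimated free RNA exceeded the member UMIs (119.5%), and counts left under 3 by the subtraction were set to 3. The value of -6.18 therefore depends on that floor and is not a measured ratio. Free RNA was not subtracted for acinar cells, whose own enzymes measure it.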

Other observations

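At the other end of the ranking that Mxd3 led stood another member of its family. Mxd4, chosen after its values were seen, was lower in several-member cells than in cells without members in every one of the 10 pairs of class and library, by the widest margin when genes were ranked by their highest ratio, from -2.69 to -0.69 on the log2 scale, with a median of -1.74. Mxd3 and Mxd4 both code for partners of MAX.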
